A study of Arabidopsis thaliana with 24 samples.

Results

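The genes described here are those carried by the mitochondrial genome of Arabidopsis thaliana. They were taken as every row of the deposited expression table whose identifier begins with ATMG and that reached 1 TPM in 2 or more of 24 libraries, which gave 37 members among 152 mitochondrial rows and 33026 rows in all. TPM, the unit of the table, is a length-corrected share of the RNA counted in a library, so the values of a library add up to about 1000000 and a rise in one class of RNA lowers the share left for the others. TPM keeps no read depth, so the number of reads behind a value is unknown.

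The study sequenced RNA of whole seedlings from 3 genotypes, Col-0 wild type (WT), pif7-1 and ref6-1, with 2 libraries in each of 12 groups. PIF7 is a phytochrome-interacting transcription factor of shade-induced growth, and REF6 is a Jumonji-type histone demethylase. At 4 days of age, naive seedlings had 8 h of white light and primed seedlings 8 h of shade, and all then had 40 h of white light before sampling either in white light or after a 1 h shade pulse (ratio of red to far-red light near 0.5). Nothing in the labels says whether the libraries of a group came from separate cultures, so the tests measure the spread between libraries, which may be technical.

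Libraries were checked against their labels. PIF7 stood at 1.09 to 3.03 TPM in the 8 pif7-1 libraries and at 28.4 to 76.6 TPM in the 8 WT libraries. REF6 overlapped between the genotypes, at 6.16 to 10.9 TPM in the libraries labelled ref6-1 and 8.13 to 12.9 TPM in WT, so its total does not check that label. ATXR7, a histone methyltransferase gene, was at or below 0.02 TPM in the 4 naive libraries labelled ref6-1 and at 7.2 to 8.6 TPM in the 4 primed ones, against 4.44 to 12.9 TPM in the 16 other libraries. The naive and primed libraries labelled ref6-1 therefore differ in more than history, and "ref6-1" below means only that label. The naive mutant libraries were deposited in a later block and are labelled less fully, so their levels are set beside naive WT without a test. Shoot markers were abundant, with RBCS1A, the small subunit of Rubisco, at 10596 to 20742 TPM, and root markers were present, with CASP1, a Casparian strip protein, at 4.89 to 34.5 TPM. Fewer cells of a type and less RNA per cell cannot be told apart in such samples.

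Plant mitochondria keep a small genome for some subunits of the respiratory chain and ATP synthase, for proteins of cytochrome c maturation, for a few ribosomal proteins, and for ribosomal and transfer RNAs. Most other mitochondrial proteins are encoded in the nucleus. They include the phage-type polymerases that read the mitochondrial genome and many factors that splice and edit its transcripts. Some mitochondrial genes, such as nad1, nad2 and nad5, lie in separate pieces whose transcripts are joined by trans-splicing, and the table lists those pieces as separate rows. Poly(A) tails in plant mitochondria mark transcripts for decay, and whether these libraries were made from polyadenylated RNA is not given in the sources used here.

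A large copy of mitochondrial DNA sits in nuclear chromosome 2 of Arabidopsis, which bears on what these rows can measure. In RefSeq assembly TAIR10.1, whose mitochondrial sequence may differ from the one the authors used, 24 members were matched to RefSeq genes by name. Of the stretches of 50 bases in each gene, 0% also occurred in the nuclear chromosomes for rrn5, rrn26, nad9, nad4L, ccmB and atp4, and 0.4% did for rrn18. The shares were 7.4% for rps3 and 18.5% for cox2, and 100% for atp1, atp8, atp9, ccmFC, nad2, nad3, nad4, nad6 and rps12. The sequences below show both kinds, 5′ to 3′, because the clearest library pattern is that of rrn5 and because rps12 and atp9 cannot be told from their nuclear copies by DNA sequence. Of rps12 the first 300 of 378 bases are shown, with capitals for the 9 cytidines there that RefSeq annotates as edited to uridine in the RNA, and no base of the other 2 genes is in capitals.
rrn5 (RRN5, 5S ribosomal RNA, chrMT:126001-126118, minus strand, 118 bases): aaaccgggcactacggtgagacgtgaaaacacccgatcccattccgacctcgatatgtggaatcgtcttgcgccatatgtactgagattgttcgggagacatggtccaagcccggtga
rps12 (RPSL2, small-subunit ribosomal protein, chrMT:288446-288745, plus strand): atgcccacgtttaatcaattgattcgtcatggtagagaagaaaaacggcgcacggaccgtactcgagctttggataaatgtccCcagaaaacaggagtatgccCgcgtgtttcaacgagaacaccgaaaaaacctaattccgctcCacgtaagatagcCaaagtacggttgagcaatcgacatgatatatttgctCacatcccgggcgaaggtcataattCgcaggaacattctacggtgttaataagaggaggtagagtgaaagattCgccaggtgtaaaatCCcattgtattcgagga
atp9 (ATP9, subunit c of the ATP synthase ring, chrMT:270961-271185, minus strand, 225 bases): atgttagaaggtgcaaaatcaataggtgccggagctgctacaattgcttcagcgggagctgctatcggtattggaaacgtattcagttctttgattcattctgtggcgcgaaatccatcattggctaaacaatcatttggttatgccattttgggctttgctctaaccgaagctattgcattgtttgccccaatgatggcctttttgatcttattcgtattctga
The whole coding sequence of rps12 occurs at chr2:3270410-3270787 and the atp9 sequence at chr2:3251856-3252080, while rrn5 has no full copy in the nuclear chromosomes. In the table, the row of RPSL2 held the same value as the nuclear gene AT2G07675 in all 24 libraries, and that of YMF19, the atp8 gene, the same value as AT2G07707. The values of these members therefore do not separate mitochondrial from nuclear origin.

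Most mitochondrial transcripts were near the limit of detection. By role, 3 of 3 ribosomal RNAs, 11 of 14 complex I rows, 1 of 3 complex IV rows, 5 of 6 ATP synthase rows, 2 of 5 cytochrome c maturation rows, 2 of 7 ribosomal protein rows and 13 of 90 open reading frame rows were members. COB, the only complex III gene, had a highest value of 0.09 TPM and was no member, nor were MATR, a maturase, and ORFX, a membrane transporter of the MttB family. The 21 mitochondrial transfer RNA rows were listed at 0 in every library, as were the 625 nuclear transfer RNA genes. Of the 37 members, 15 had a mean of at least 1 TPM, 13 were above 0 in every library and 4 reached 1 TPM in every library: RRN18, RRN26, ORF107A and NAD2B. At the edge of the rule, 6 members reached 1 TPM in just 2 libraries, such as RPS3 and NAD4, and rows that did so in 1 library, such as NAD2A with a highest value of 3.01 TPM and COX1 with 1.7 TPM, were left out. The plot of members by library shows how thinly most are filled.

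**Figure D1:**
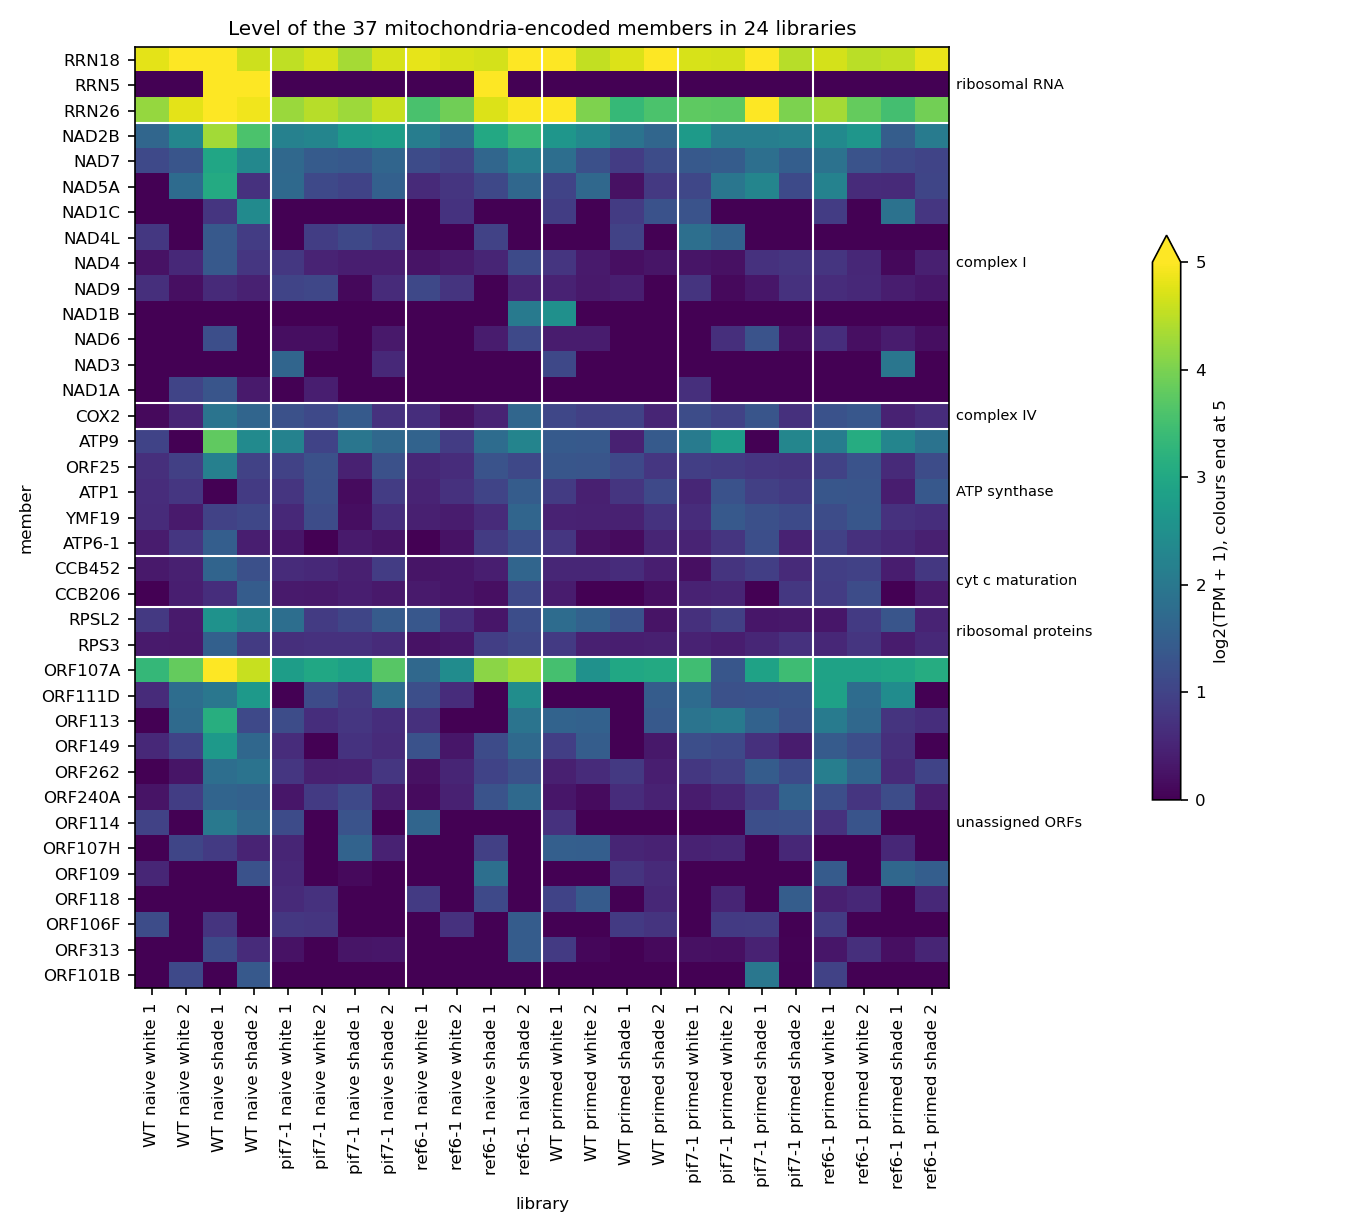
Level of each of the 37 members (rows, grouped by role) in each of the 24 libraries (columns), as log2(TPM + 1) with colours ending at 5. The ribosomal RNAs RRN18 and RRN26, the open reading frame ORF107A and the complex I piece NAD2B are filled in every library, while RRN5 is filled in 3 and dark in 21.

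The question of the design is how a 1 h shade pulse changes transcripts, and whether an earlier shade period or the loss of PIF7 or REF6 alters that change. Each change was tested with limma on log2(TPM + 1) over the 21473 genes that passed the same 1 TPM rule, with p-values adjusted over all of them and called below 0.05. A log2 change on this scale understates the change of low genes.

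In naive WT seedlings, mitochondria-encoded RNA was higher in shade. Of the 37 members, 15 rose and none fell, beside 35.6% of all tested genes called in either direction and 12.5% called higher. The median change was 0.85 over the members and -0.10 over all genes tested. Without the 2 naive shaded WT libraries, 31 members would still reach the level for testing, among them 11 of the 15 called. The calls rest in part on few libraries: 8 remained without replicate 1 of the naive shaded group, 9 without either white-light replicate, and 7 were made when the spread was estimated from these 2 groups alone.

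RRN5, the 5S RNA of the mitochondrial ribosome, reached 213.7 and 177.1 TPM in the shaded libraries of naive WT, against listings of 0 in both white-light ones (limma adjusted p = 0.0011). It was at 302.7 TPM in replicate 1 of naive shaded ref6-1 and listed at 0 in the other 21 libraries, replicate 2 of that same group included. The pattern is all or nothing between libraries, and no fold can be given against a group at 0. RRN5 is short. Of 345 nuclear genes of 100 to 150 bases, 98 were above 0 in any library. Their lowest value above 0 had a median of 18.2 TPM, but it went down to 0.06 TPM. That median was 1.93 TPM for genes of 150 to 300 bases and 0.34 TPM for 300 to 1000 bases. It was 2.65 TPM for 1000 to 2000 bases and 6.91 TPM for longer genes, so it did not fall steadily with length. The part of gene length in the RRN5 pattern was not tested.

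RRN18, the small-subunit ribosomal RNA, lies 170 bases from rrn5 on the same strand of the RefSeq mitochondrial genome. It stood at 26.9 and 35.2 TPM in naive white-light WT and at 96.1 and 23.56 TPM in naive shaded WT. RRN26, the large-subunit RNA, stood at 17.6 and 26.7 TPM and at 95.1 and 28.8 TPM in the same order. Both were high in 1 shaded library only: the white-light and shaded values of RRN18 overlapped, and neither RRN18 nor RRN26 passed the test (limma adjusted p = 0.082 for RRN26). In naive shaded ref6-1, replicate 1, which held RRN5, had RRN18 at 24.5 TPM and RRN26 at 25.8 TPM, and replicate 2, which held none, had them at 38.4 and 30.2 TPM. The 3 ribosomal RNAs thus did not move together from library to library.

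The highest levels of RRN18 and RRN26 outside the naive shaded groups were in replicate 1 of primed white-light WT, at 74.8 and 60.0 TPM, and in replicate 1 of primed shaded pif7-1, at 41.0 and 33.7 TPM. Those 2 libraries and replicate 1 of naive shaded WT were also the 3 with most nuclear ribosomal RNA, at 20005, 18114 and 27126 TPM, against 3055 to 12668 TPM in the others. The part of nuclear ribosomal RNA in the mitochondrial levels was not tested as a cause. With these 3 libraries left out, a choice made after seeing the data, 9 members were called in naive WT, and with log2 nuclear ribosomal RNA as a covariate 11 were.

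**Figure D2:**
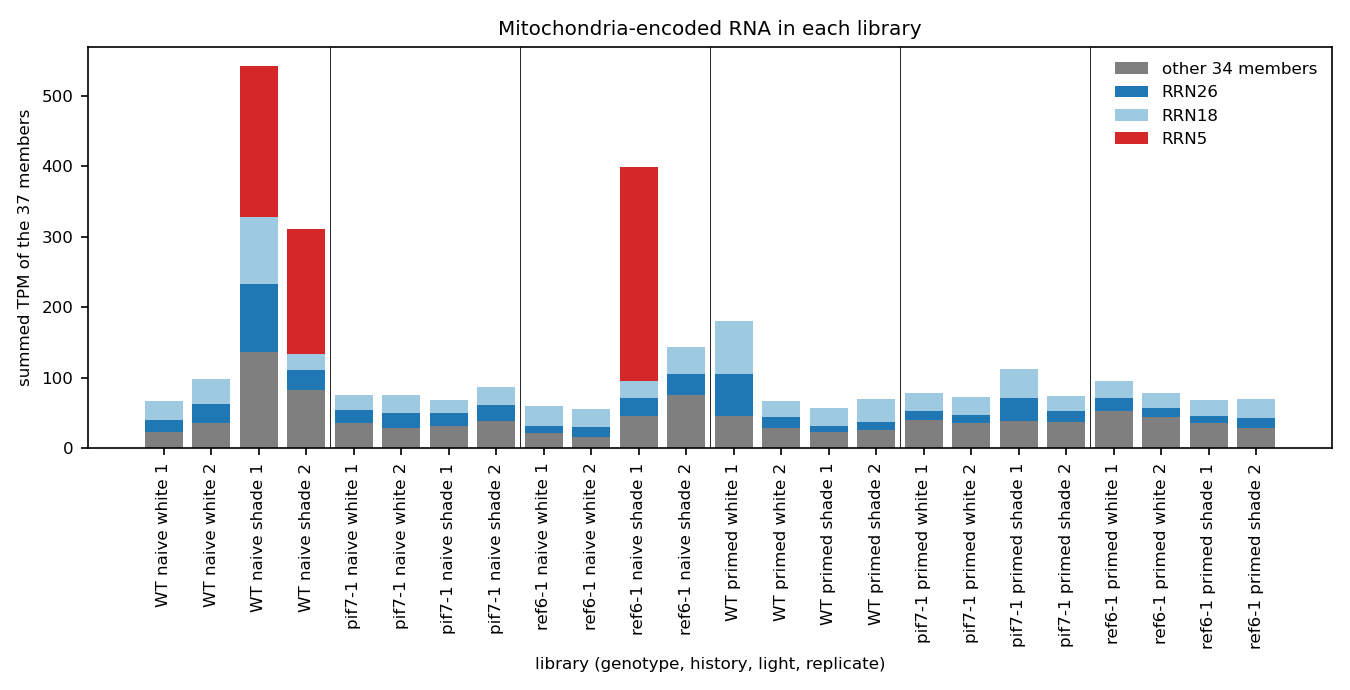
Summed TPM of the 37 members in each library, split into RRN5 (red), RRN18 (light blue), RRN26 (dark blue) and the other 34 members (grey). RRN5 appears in 3 libraries, at 213.7, 177.1 and 302.7 TPM, and RRN18 and RRN26 are highest in replicate 1 of naive shaded WT.

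Of the 11 complex I members, 4 rose in naive shaded WT, beside 12.5% of all tested genes called higher. NAD2B, a piece of the trans-spliced nad2 gene, stood at 2.14 and 3.92 TPM in naive white-light WT and at 18.9 and 11.1 TPM in naive shaded WT. Both shaded libraries were above every library outside naive shaded WT and ref6-1, where it ranged from 1.79 to 5.86 TPM. The log2 change was 1.98 (SE 0.28, limma adjusted p = 8.2e-05) and passed under each alternative run. NAD7, a subunit of the matrix arm of complex I, went from 1.16 and 1.49 TPM to 6.8 and 4.06 TPM (log2 change 1.44, SE 0.26, adjusted p = 0.0007). NAD4, a membrane-arm subunit, rose by 0.67 and the nad1 piece NAD1C, listed at 0 in both white-light libraries, was at 0.7 and 4.27 TPM in shade; both passed. The other 7 complex I members did not pass: NAD5A was at 0 and 2.37 TPM in white light and at 7.27 and 0.65 TPM in shade, and NAD9 was at 0.59 and 0.16 TPM and then 0.51 and 0.37 TPM.

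Members of the rest of the respiratory chain gave a mixed picture. COX2, a core subunit of cytochrome c oxidase, went from 0.09 and 0.44 TPM to 2.82 and 2.09 TPM (log2 change 1.46, SE 0.34, adjusted p = 0.0037), with no overlap between the groups. ATP9 went from 1.01 and 0 TPM to 12.7 and 4.26 TPM (log2 change 2.58, SE 0.65, adjusted p = 0.0063). The other 4 ATP synthase members did not pass, and ATP1, the alpha subunit of the catalytic head, was at 0.56 and 0.73 TPM in white light and at 0 and 0.8 TPM in shade. CCB452, a part of the cytochrome c haem lyase, rose from 0.26 and 0.35 TPM to 2.05 and 1.33 TPM (log2 change 1.03, adjusted p = 0.018), and CCB206, a haem transporter subunit, was at 0 and 0.33 TPM and then 0.57 and 1.74 TPM without passing.

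Both ribosomal protein members were called, although the row of RPSL2 cannot be told apart from its nuclear copy and RPS3 was tested only because of the naive shaded libraries. RPSL2 went from 0.77 and 0.28 TPM to 4.82 and 3.62 TPM (log2 change 1.78, SE 0.41, adjusted p = 0.0034). RPS3 went from 0.28 and 0.26 TPM to 1.89 and 0.82 TPM (log2 change 0.85, SE 0.22, adjusted p = 0.0066). RPS3 reached the level for testing only with the naive shaded WT libraries, as did CCB452, NAD4 and RRN5.

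Of the 13 open reading frame members, 5 rose in naive shaded WT, beside 12.5% of all tested genes called higher. The largest was ORF262, from 0 and 0.22 TPM to 2.5 and 2.74 TPM (log2 change 1.71, SE 0.24, adjusted p = 9.4e-05), which passed under every alternative run in which it was tested, as did NAD7, COX2 and RPSL2. ORF107A, the most abundant member that is not a ribosomal RNA, went from 9.04 and 13.1 TPM to 39.0 and 22.8 TPM (log2 change 1.38, SE 0.51, adjusted p = 0.047). Its call held in only 4 of 14 alternatives. ORF149 rose by 1.38, ORF114 by 1.36 and ORF240A by 0.99, and their calls held in 8, 5 and 6 of 13 alternatives. The products of these frames, other than their names, are not used here.

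Calls were set beside the share of each member's sequence that also occurs in the nucleus. Among the 24 members matched to RefSeq genes, 8 had under 10% of their 50-base stretches in the nucleus. Of these, 2 were called in naive WT, RRN5 with 0% and RPS3 with 7.4% shared. Both reached the level for testing only with the naive shaded WT libraries. RRN18, RRN26, NAD9, NAD4L, CCB206 and ORF25 of that class were not called. The counts of calls were 2 of 6 for members with 10% to under 90% shared and 6 of 10 for members with 90% or more, beside 35.6% of all tested genes called and 12.5% called higher. A difference between the classes was not tested. Among members with 90% or more shared, CCB452 and NAD4 also reached the level only with the naive shaded WT libraries. A further 126 nuclear genes, 124 of them on chromosome 2, have 50% or more of their 50-base stretches in the mitochondrial genome. Their summed level was 10.3 and 13.1 TPM in naive white-light WT and 63.4 and 34.6 TPM in naive shaded WT, against 8.65 to 28.7 TPM in the 20 libraries outside naive shaded WT and ref6-1. In naive shaded ref6-1 the sum was 13.8 TPM in replicate 1 and 36.5 TPM in replicate 2, the latter above replicate 2 of naive shaded WT. The share of nuclear transcription in the members or in these rows was not tested.

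Naive ref6-1 seedlings showed a smaller set of rises. Of the 37 members, 6 rose in shade and none fell, beside 17.4% of all tested genes called and 8.96% called higher, and the median was 0.64 over the members and 0.00 over all genes. NAD2B went from 3.33 and 2.36 TPM to 7.11 and 9.51 TPM (log2 change 1.28, SE 0.28, limma adjusted p = 0.0064). ORF107A went from 2.22 and 4.4 TPM to 16.6 and 19.2 TPM (log2 change 2.18, SE 0.51, adjusted p = 0.01). Groups did not overlap for either gene, and the other rises were ORF240A at 1.19, NAD7 at 0.84, ORF262 at 0.75 and RPS3 at 0.73. All 6 were also called in naive WT, but RPS3 reached the level for testing only with the naive shaded ref6-1 libraries included. The count was 1 without either white-light replicate, 2 without shaded replicate 2, 2 with nuclear ribosomal RNA as a covariate, and 0 when the spread came from these 2 groups alone. Replicate 2 was the higher shaded library for most messenger RNAs, with 6 members at their highest of all 24 libraries there, and the non-ribosomal members summed to 45.3 and 74.7 TPM in shade against 21.1 and 16.3 TPM in white light.

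No mitochondria-encoded gene was called in naive pif7-1, beside 7.38% of all tested genes, with 1 member at an unadjusted p below 0.05 and a median of 0.00 over the members. NAD2B was at 3.61 and 3.82 TPM in white light and at 5.49 and 5.86 TPM in shade, and did not pass. COX2 was at 1.35 and 1.16 TPM and then 1.68 and 0.63 TPM. RRN5 was listed at 0 in all 4 libraries. In naive white-light pif7-1, COX2 and NAD7, the latter at 2.24 and 1.69 TPM, were above both naive white-light WT libraries. Genotype and deposit block cannot be told apart in that comparison, which was not tested. In primed white light COX2 overlapped, at 1.25 and 0.99 TPM in pif7-1 and 1.1 and 0.93 TPM in WT. NAD7 overlapped there too, at 1.65 and 1.75 TPM against 2.52 and 1.32 TPM.

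The difference between the pif7-1 and WT naive shade responses was tested itself. It passed for 6 members, all with the lower response in pif7-1, beside 12.9% of all tested genes called and 6.38% called lower. The log2 differences were -1.88 for RPSL2, -1.70 for ORF262, -1.56 for COX2, -1.49 for NAD7 and -1.48 for NAD2B. RRN5 passed as well, but it reached the level for testing only with the naive shaded WT libraries. It was listed at 0 in every pif7-1 library, so its call is no separate support. Leaving out replicate 1 of naive shaded WT left 1 call, as did leaving out replicate 1 of naive white-light WT or of naive white-light pif7-1. The difference between the ref6-1 and WT naive shade responses passed for no member, beside 2.13% of all tested genes, with 4 members at an unadjusted p below 0.05. That does not show that the responses were alike. Both differences set naive mutant libraries of the later deposit block beside WT libraries of the earlier block. Genotype and block therefore cannot be told apart in either test.

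After priming, no mitochondria-encoded gene was called higher in shade. In primed WT, 0 of 37 members were called, beside 23.4% of all tested genes, with 6 at an unadjusted p below 0.05 and a smallest adjusted p of 0.051. The median change was -0.25. NAD2B was at 5.15 and 4.1 TPM in white light and at 2.74 and 2.15 TPM in shade. RRN26 was at 60.0 and 15.5 TPM in white light and at 9.2 and 11.1 TPM in shade, without overlap but with white-light replicate 1 far above the other 3. Without white-light replicate 2, 2 members were called, and with these 2 groups alone in the fit 4 were.

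Primed pif7-1 and primed ref6-1 each had 1 member lower in shade. In pif7-1 it was NAD4L, a small membrane subunit of complex I, at 2.56 and 1.96 TPM in white light and listed at 0 in both shaded libraries (limma adjusted p = 0.02), beside 5.01% of all tested genes. In ref6-1 it was ORF262, from 3.38 and 2.06 TPM to 0.52 and 1.0 TPM (log2 change -1.07, SE 0.24, adjusted p = 0.009), beside 12.7% of all tested genes. The count of 1 became 0 or 3 in pif7-1 and 0 or 2 in ref6-1 as each library was left out. ORF262 was thus higher in shade in naive WT and naive ref6-1 and lower in primed ref6-1.

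Priming and trigger light combined as a difference between the 2 shade responses. In WT, 11 members had a lower response after priming and none a higher one, beside 35.4% of all tested genes called and 12.4% called lower. The log2 differences among the 10 with no group at 0 ran from -3.06 for ATP9 to -0.98 for NAD4, with -2.68 for NAD2B and for RPSL2 and -1.93 for NAD7. RRN26 was at -2.75 (adjusted p = 0.011), a value that rests on replicate 1 of naive shaded WT and replicate 1 of primed white-light WT: it was -1.91 without the former (adjusted p = 0.064) and -1.81 without the latter (adjusted p = 0.060). Of the 11, NAD7, ORF149, RPSL2, ORF262 and NAD2B passed under every alternative run in which they were tested. RPS3, NAD4 and RRN5 reached the level for testing only with the naive shaded WT libraries. Leaving out replicate 1 of naive shaded WT gave 7 calls, and leaving out all 3 libraries high in nuclear ribosomal RNA gave 5. In libraries labelled ref6-1, 8 members had a lower response after priming, beside 22.8% of all tested genes called and 8.43% called lower, led by NAD2B at -1.99 and ORF262 at -1.82, with counts of 2 to 12 as each library was left out. Of those 8, RPS3 reached the level for testing only with the naive shaded ref6-1 libraries included. In pif7-1 the test passed for NAD4L alone, beside 2.28% of all tested genes. In both mutants the naive libraries are in the later deposit block, so history and block cannot be told apart there.

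Primed against naive WT in shade alone gave the longest list of falls. This comparison is not a difference of shade responses, and it also takes in any difference between the histories before the pulse. In shaded WT, 16 members were lower after priming than in naive seedlings and none was higher, beside 43.1% of all tested genes called in either direction and 21.0% lower. NAD2B was at 18.9 and 11.1 TPM in naive and 2.74 and 2.15 TPM in primed shaded WT (log2 difference -2.17, SE 0.28, limma adjusted p = 2.8e-05), and RRN26 passed here, at 95.1 and 28.8 TPM against 9.2 and 11.1 TPM (log2 difference -2.27, SE 0.53, adjusted p = 0.003; -1.43 and adjusted p = 0.066 without replicate 1 of naive shaded WT). The naive shaded WT libraries enter both this comparison and the naive shade response, so the 14 members called in both are not independent evidence. Of the 16, RPS3, CCB452, NAD4 and RRN5 reached the level for testing only with those libraries. Without replicate 1 of naive shaded WT 7 were called. In white light, before the trigger, no member passed between primed and naive WT, beside 7.53% of all tested genes, with 3 at an unadjusted p below 0.05 and changes between -1.21 and 1.26.

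Between genotypes in primed seedlings, few members passed. In white light NAD4L was higher in pif7-1 than in WT, where it was listed at 0 (adjusted p = 0.016; 5.70% of all tested genes were called), and it was also listed at 0 in both primed white-light ref6-1 libraries. In ref6-1 against WT, ORF262 was higher, at 3.38 and 2.06 TPM against 0.35 and 0.54 TPM (log2 difference 1.34, SE 0.24, adjusted p = 0.0017), and ORF107H was at 1.85 and 1.83 TPM in WT and listed at 0 in both ref6-1 libraries (adjusted p = 0.018; 15.5% of all tested genes were called). In primed shade no member passed against WT in pif7-1, beside 18.9% of all tested genes and with 3 members at an unadjusted p below 0.05, or in ref6-1, beside 6.22% of all tested genes and with 0 members at an unadjusted p below 0.05.

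Nuclear genes for subunits of the respiratory chain and ATP synthase were lower in naive shaded WT and ref6-1. The list of 29 takes in complexes II and III, which have no mitochondria-encoded member here. None rose and 19 fell in naive shaded WT, beside 35.6% of all tested genes called and 23.1% called lower, with a median of -0.48 beside 0.85 for the mitochondria-encoded members and -0.10 for all genes. CYC1-1, a cytochrome c1 of complex III, fell from a mean of 51.8 to 27.8 TPM (log2 change -0.87, SE 0.16, limma adjusted p = 0.0008), and EMB1467, the large iron-sulphur subunit of complex I, from 42.4 to 24.6 TPM (log2 change -0.77, SE 0.13, adjusted p = 0.0005). SDH1-1, the flavoprotein of complex II, and ATP-delta, a subunit of the ATP synthase, fell by 0.72 and 0.69. In naive ref6-1, none rose and 11 of 29 fell with a median of -0.24, beside 17.4% of all tested genes called and 8.43% called lower, and in naive pif7-1 none was called, beside 7.38%. In primed WT 6 of 29 were called, a share no larger than the 23.4% of all tested genes, and all 6 were higher in shade, among them EMB1467 at 0.47 and CI51, the NADH-binding subunit, at 0.43. In primed ref6-1 11 of 29 rose, beside 12.7% of all tested genes called, led by ATP2-2, a beta subunit of the ATP synthase, at 0.64. In primed pif7-1 just 1 was called, beside 5.01% of all tested genes: SDH1-1, which fell by 0.89.

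**Figure D3:**
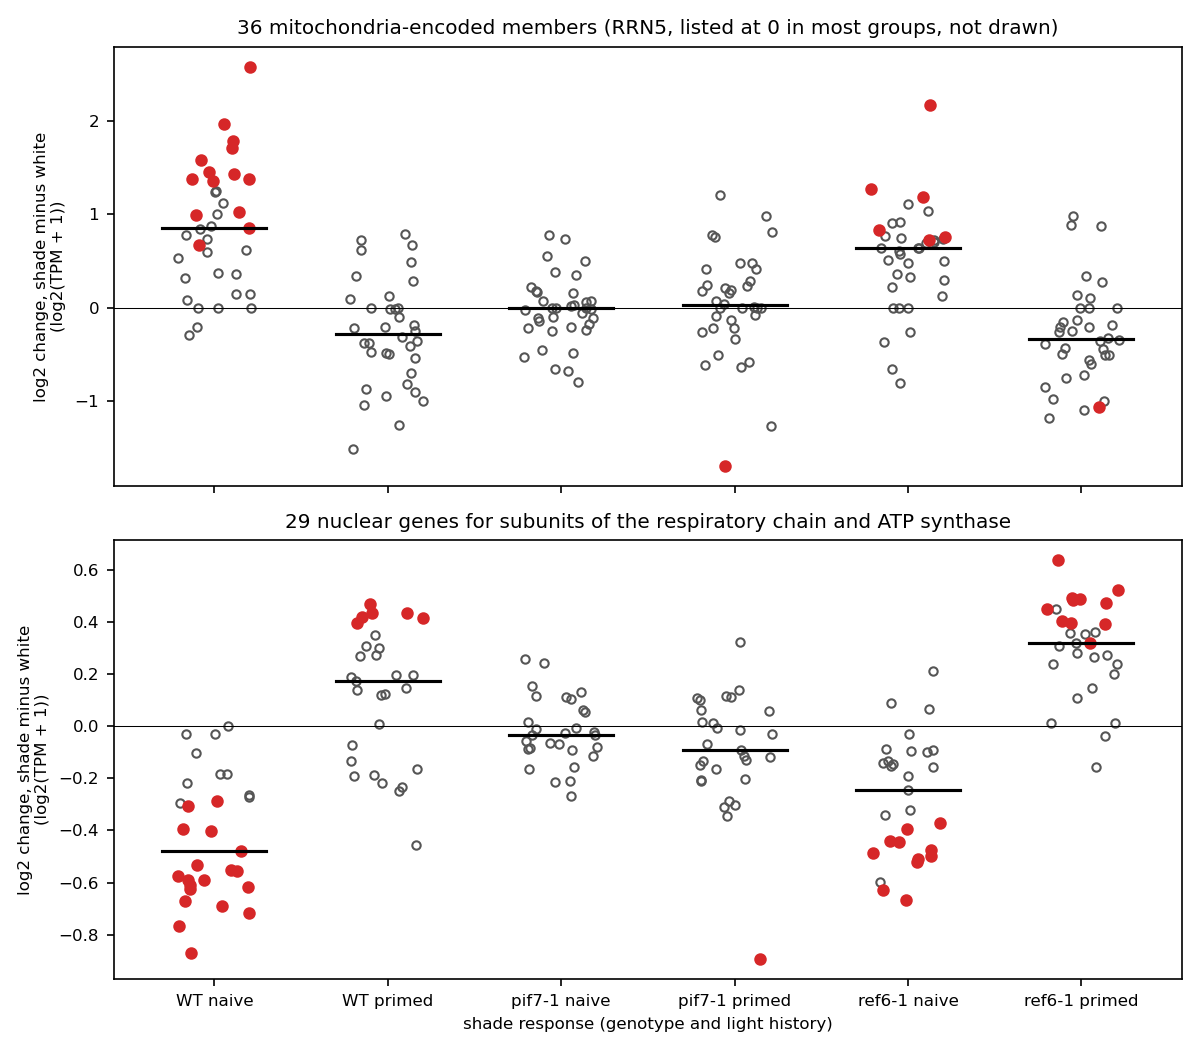
Change in shade (shade minus white light, difference of log2(TPM + 1)) of 36 mitochondria-encoded members, RRN5 not drawn, and of 29 nuclear genes for respiratory subunits, in 6 shade responses. Each point is a gene, red where the adjusted p was below 0.05, and bars are medians; in naive WT the medians are 0.85 above and -0.48 below, and after priming they are -0.28 and 0.17.

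Of 15 tested nuclear genes for mitochondrial transcription and RNA processing, 2 rose and 1 fell in naive shaded WT, beside 35.6% of all tested genes called. PNPASE2, the mitochondrial polynucleotide phosphorylase, rose by 0.57 and NMAT2, an intron maturase, by 0.51, while OTP43, a splicing factor of nad1, fell by 0.58. The polymerase genes did not pass: RPOTM had a mean of 10.2 TPM in white light and 10.7 TPM in shade. After priming, 8 of 15 rose in shaded WT and none fell, beside 23.4% of all tested genes called, with RPOTM from 8.25 to 16.4 TPM (log2 change 0.91, SE 0.17, adjusted p = 0.0014), the second polymerase gene RPOTMP by 0.88, the editing factor MORF1 by 0.87 and the RNA helicase PMH1 by 0.78. In primed ref6-1 3 of 15 rose, PMH1, MORF8 and MORF1, beside 12.7% of all tested genes called, and in pif7-1 none was called under either history.

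Of 11 tested genes of alternative respiration and mitochondrial stress, 1 rose and 3 fell in naive shaded WT, a share near the 35.6% of all tested genes called there. NDB2, an external NAD(P)H dehydrogenase, went from a mean of 4.86 to 0.76 TPM (log2 change -1.73, SE 0.33, adjusted p = 0.0011), NDA1, an internal one, fell by 0.60, and ANAC017, a transcription factor of mitochondrial stress signalling, fell by 0.43, while NDB3 rose by 0.86. AOX1A, the main alternative oxidase, had means of 28.0 TPM in white light and 23.0 TPM in shade and did not pass. In primed shaded WT ANAC017 alone was called, higher by 0.37, beside 23.4% of all tested genes.

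Other RNA classes also differed between libraries. The 72 chloroplast-encoded genes that passed the 1 TPM rule had 23 rises and 1 fall in naive shaded WT with a median of 1.01, beside 35.6% of all tested genes called and 12.5% called higher. They had 10 rises and no fall in naive ref6-1 with a median of 0.63, beside 17.4% called and 8.96% called higher. None was called in naive pif7-1, beside 7.38%, and in primed WT 12 fell and none rose, beside 23.4%. All chloroplast rows summed to 15264 and 7259 TPM in naive shaded WT, 4493 and 4554 TPM in naive shaded ref6-1, and 1706 to 9918 TPM in the 20 other libraries, of which the highest was replicate 1 of primed white-light WT. Small nucleolar RNAs summed to 4238 and 3837 TPM in naive shaded WT, to 2695 and 1154 TPM in naive shaded ref6-1, and to 367 to 1906 TPM in the others. The classes did not all follow the mitochondrial sums: replicate 2 of naive shaded ref6-1 and replicate 1 of primed white-light WT, at 157.8 and 186.3 TPM of mitochondrial RNA, had small nucleolar RNA at 1154 and 1305 TPM, within the range of the other libraries. Nuclear ribosomal RNA in naive shaded WT was at 27126 TPM in replicate 1 and at 5460 TPM in replicate 2. In replicate 2 NAD2B was at 11.1 TPM, RRN5 at 177.1 TPM and COX2 at 2.09 TPM. RRN18 was there at 23.56 TPM, NAD5A at 0.65 TPM and ORF113 at 1.14 TPM, each below its naive shaded replicate 1. RRN18 was also below both naive white-light WT libraries, and NAD5A and ORF113 were below replicate 2 of naive white-light WT only. The part of these classes in the mitochondrial levels was not tested.

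Root markers fell in naive shade in WT and ref6-1. All 5 root markers fell in naive shaded WT, with a median of -1.95, beside 35.6% of all tested genes called and 23.1% called lower. All 5 also fell in naive shaded ref6-1, with a median of -1.84, beside 17.4% called and 8.43% called lower. The summed level of the markers was 74.7 and 63.8 TPM in naive white-light WT against 18.2 and 12.3 TPM in shade. PRP3, a root hair wall protein, had means of 8.43 TPM in white light and 0.46 TPM in shade in WT, and no marker was at 0 in every library. In primed WT 1 of 5 rose and in primed ref6-1 3 of 5, with medians of 0.76 and 1.17. Of all tested genes, 23.4% and 12.7% were called there. In pif7-1 none was called under either history, beside 7.38% of all tested genes in naive and 5.01% in primed seedlings. All 5 were higher in primed than in naive shaded WT, with a median of 1.86, beside 43.1% of all tested genes called. All 5 also had a higher shade response after priming than before it in WT and in ref6-1. The medians were 2.71 and 2.80, beside 35.4% and 22.8% of all tested genes called. Of the shoot markers, 2 of 4 fell and 0 rose in naive shaded WT, beside 23.1% of all tested genes called lower. The other 2 had higher means in shade without passing. LHCB3 had 3561 TPM in white light and 4527 TPM in shade, and LHCB2.1 had 1952 and 2081 TPM. The part of tissue make-up in the mitochondrial levels was not tested.

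**Figure D4:**
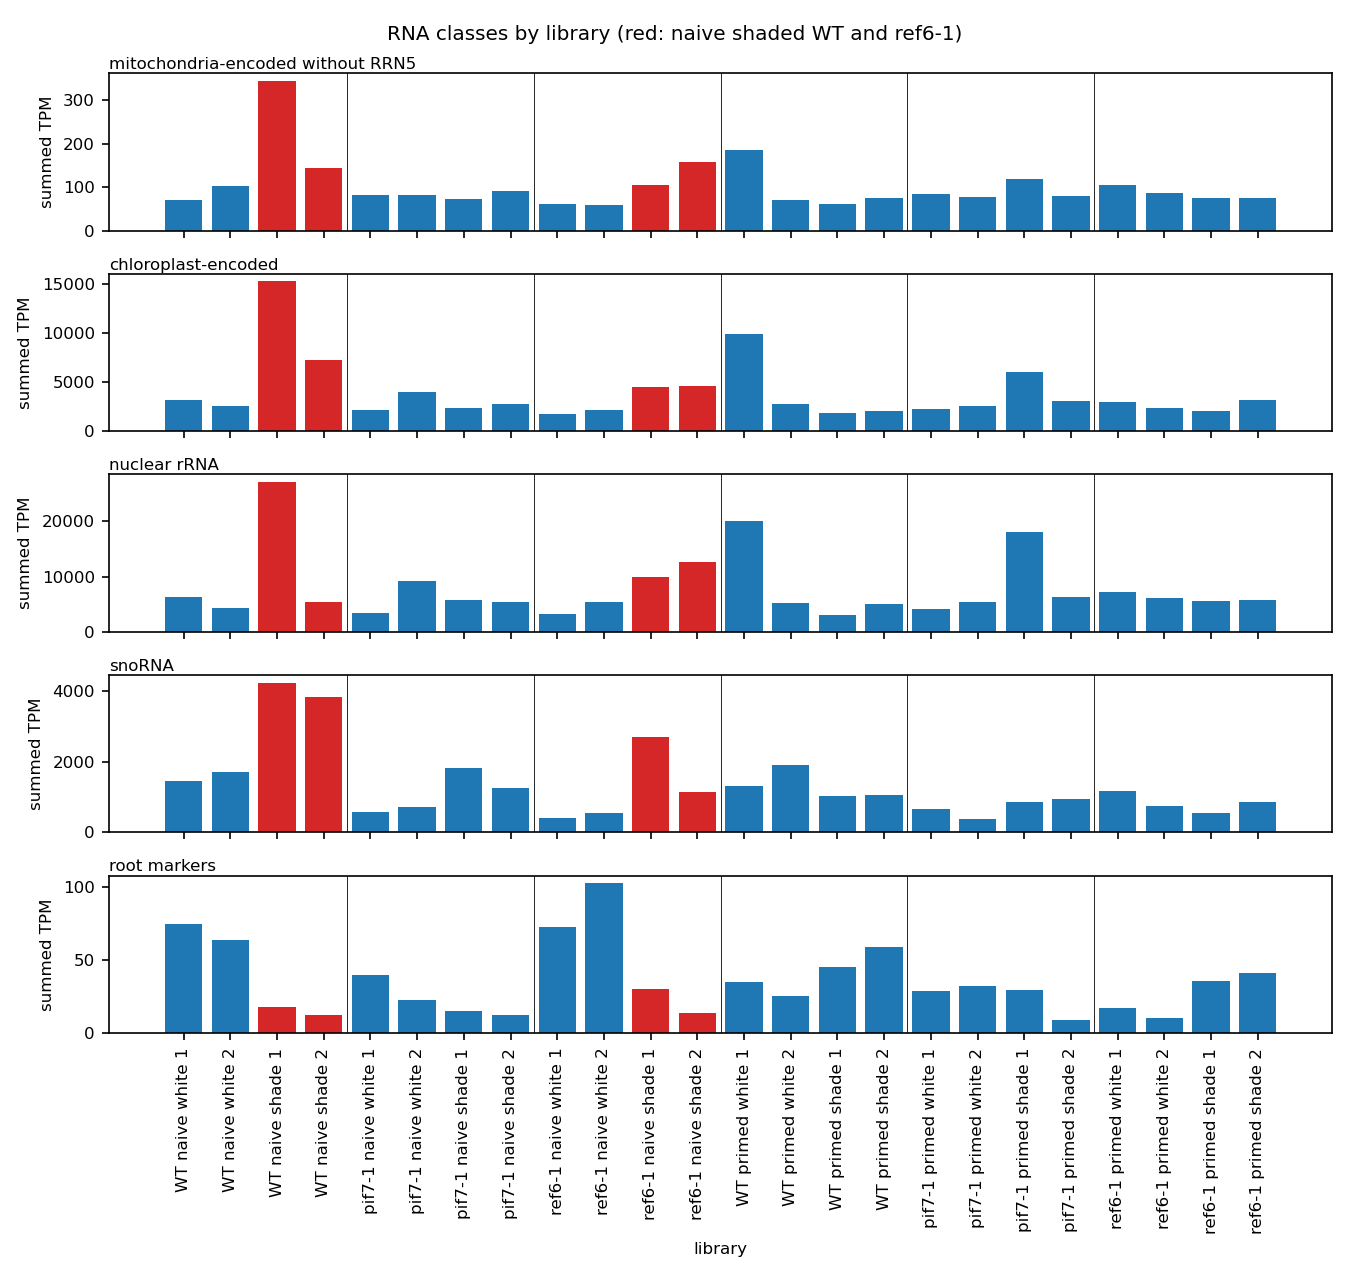
Summed TPM of mitochondria-encoded RNA without RRN5, chloroplast-encoded RNA, nuclear ribosomal RNA, small nucleolar RNA and 5 root markers in each library, with naive shaded WT and ref6-1 in red. The chloroplast and small nucleolar sums are highest in naive shaded WT, at 15264 and 7259 TPM and at 4238 and 3837 TPM, with replicate 1 of primed white-light WT between the 2 chloroplast values at 9918 TPM.

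Over all members, replicate 1 of naive shaded WT held the highest value of the 24 libraries for 17 of 37, and it had 25 members at 1 TPM or more. Replicate 2 of naive shaded WT had 21, the 2 naive shaded ref6-1 libraries 15 and 26, and the 20 other libraries 4 to 16 with a median of 13. All mitochondrial rows together summed to 345.5 and 144.0 TPM in naive shaded WT once RRN5 was set aside, to 104.0 and 157.8 TPM in naive shaded ref6-1, and to 58.9 to 186.3 TPM elsewhere. The 4 libraries of naive shaded WT and ref6-1 did not stand clear of all others, since values above 104.0 TPM were also found in primed white-light WT replicate 1 at 186.3 TPM, primed shaded pif7-1 replicate 1 at 119.3 TPM and primed white-light ref6-1 replicate 1 at 105.3 TPM. Some members had patterns of their own: NAD1B was above 0 in 2 libraries, at 4.73 TPM in primed white-light WT and 3.19 TPM in naive shaded ref6-1, NAD3 in 4, and ORF101B in 4, and 11 members were listed at 0 in 12 or more libraries.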

How the data were processed

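Expression was analysed in 24 seedling libraries. The values are TPM per gene, deposited by the authors as a table of 33026 rows, and each column sums to about 1000000. The tools named are STAR, HTSeq, DESeq2, cutadapt and FastQC, with the build TAIR10 and no versions or roles, per the submitters' processing notes; how the TPM were computed, the library type and the handling of reads with several matches are not given in the sources used here. No column lacked a sample. Levels were compared as log2(TPM + 1) with limma 3.58.1 (limma-trend, R 4.3.3) in 1 fit of 12 group means over 24 libraries and 21473 genes reaching 1 TPM in 2 libraries, with Benjamini-Hochberg adjustment in each of 17 comparisons; the procedure was tested on simulated data. Alternatives were other filters and pseudocounts, quantile scaling, scaling to nuclear genes, fits to the compared groups only, a replicate block, and leaving out each library. Sequences and gene matches came from RefSeq TAIR10.1. The members, gene lists and tests were chosen with earlier results of these data known. Named genes were the ribosomal RNAs, the most abundant member of each role, up to 10 called members in each direction of a comparison, and from each nuclear list up to 4 called genes with the largest change or 2 with the smallest p; other members were added as examples after their values were seen. Replicate numbers did not pair libraries: the correlation of deviations exceeded 0.1 for 6 of 66 pairs of groups.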

Additional observations from a re-analysis of the deposited data

Results flagged for a closer look

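Shade responses that differed between histories or genotypes by a test of the difference itself (limma, adjusted p below 0.05) were marked for a closer look, and all were lower in the group named first. In WT the primed response minus the naive response, in log2 units, was RRN26 at -2.75, RPS3 at -1.07, COX2 at -1.71, NAD7 at -1.93, NAD4 at -0.98, ORF149 at -2.42, RPSL2 at -2.68, ATP9 at -3.06, ORF262 at -1.62, NAD2B at -2.68. RRN5 passed as well (adjusted p = 0.011), with the primed libraries listed at 0. RPS3, NAD4 and RRN5 reached the level for testing only with the naive shaded WT libraries.

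In libraries labelled ref6-1 the primed minus the naive response was RPS3 at -0.91, COX2 at -1.40, YMF19 at -1.26, NAD7 at -1.35, ORF149 at -1.62, ORF240A at -1.40, ORF262 at -1.82, NAD2B at -1.99. RPS3 reached the level for testing only with the naive shaded ref6-1 libraries included. The naive and primed libraries of that label also differed in ATXR7, at most 0.02 TPM in the naive ones and at least 7.2 TPM in the primed ones. They differed in deposit block as well, so the effect of history cannot be told apart from these differences.

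In pif7-1 the primed minus naive response passed for NAD4L (adjusted p = 0.041), which was listed at 0 in both primed shaded libraries. The naive response in pif7-1 minus that in WT was COX2 at -1.56, NAD7 at -1.49, RPSL2 at -1.88, ORF262 at -1.70, NAD2B at -1.48. RRN5 passed too (adjusted p = 0.027), but it reached the level for testing only with the naive shaded WT libraries. Deposit block cannot be told apart from history in the former comparison or from genotype in the latter.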

How the results depend on the processing

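No called change reversed under any alternative. Of the 15 calls in naive WT shade, NAD2B, RRN5, COX2, NAD7, RPSL2 and ORF262 held in every alternative that tested them. RRN5 reached the level for testing only with the naive shaded WT libraries and was listed at 0 in 21 libraries. That its call held is therefore no separate support. Counts of members called that moved by over 1.5 times were as follows. With a minimum of 5 TPM, which leaves 7 members, counts were 4 in naive and 1 in primed WT shade, 0 in primed pif7-1 and 2 in naive and 0 in primed ref6-1 shade, 5 for primed against naive WT in shade, 0 for both mutants against WT in primed white light, 4, 0 and 2 for primed against naive responses in WT, pif7-1 and ref6-1, and 2 for pif7-1 against WT naive responses. With only the compared groups, counts were 7 in naive and 4 in primed WT shade, 0 in primed pif7-1 and in both ref6-1 responses, 0 and 1 for pif7-1 and ref6-1 against WT in primed white light, 2 for ref6-1 against WT in primed shade, 0 for the pif7-1 history difference and 2 for pif7-1 against WT naive responses. A pseudocount of 0.1 gave 2 in primed WT and 0 in primed pif7-1 and ref6-1 shade, in pif7-1 against WT in primed white light and in the pif7-1 history difference; a pseudocount of 5 gave 1 in primed WT, 3 in naive ref6-1 and 1 for ref6-1 against WT naive responses. Quantile scaling gave 1 in primed WT shade and 1 for pif7-1 against WT in primed shade. Leaving out the 3 libraries above 15000 TPM of nuclear ribosomal RNA gave 9 in naive WT shade, 8 for primed against naive WT in shade, 5 for the WT and 0 for the pif7-1 history difference, 0 in primed pif7-1 shade, 0 and 1 for pif7-1 and ref6-1 against WT in primed white light, and 2 for pif7-1 against WT naive responses. Nuclear ribosomal RNA as a covariate gave 2 in naive ref6-1 and 6, 0 and 2 for the history differences in WT, pif7-1 and ref6-1. The cause of these moves was not tested, except that a higher minimum tests fewer members and a smaller fit has fewer libraries. Scaling to nuclear genes and testing without a filter moved no count this far. The replicate block gave 14 calls in naive WT shade, 5 in naive and 6 in the history difference of ref6-1, and changed no other count; the numbers do not pair the libraries. Leaving out each library gave, lowest to highest, 8 to 17 in naive and 0 to 2 in primed WT shade, 0 to 0 in naive and 0 to 3 in primed pif7-1, 1 to 9 in naive and 0 to 2 in primed ref6-1, 0 to 1 for primed against naive WT in white light and 7 to 21 in shade, 0 to 1 and 0 to 2 for pif7-1 against WT in primed white light and shade, 1 to 2 and 0 to 0 for ref6-1, 7 to 16, 0 to 1 and 2 to 12 for the history differences in WT, pif7-1 and ref6-1, and 1 to 5 and 0 to 1 for pif7-1 and ref6-1 against WT naive responses. Most members lie near 1 TPM with no depth known, 2 libraries a group set the precision, and reads of members with nuclear copies cannot be assigned.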
